A study of Mus musculus with 31 samples.

Results

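The comparison concerns brain pieces that carried much or little vasopressin transcript. All 31 arrays of the study were ranked by the authors' processed log2 value of Avp, so that the arrays were chosen by a measured value. The 8 arrays of highest value (Avp-rich) were set against the 8 arrays of lowest value (Avp-poor), whatever the genotype of the mouse. The remaining 15 arrays belonged to neither side. Because Avp chose the arrays, its own values are a description and no test was made on it. The sides are not groups of the study, so a difference between them is an association with the Avp level and not an effect of a treatment.

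The arrays measured RNA of the bed nucleus of the stria terminalis and preoptic area (BNST/POA), forebrain regions dissected together, in MF1 mice aged 152 days. The study models Klinefelter syndrome with sex chromosome trisomy, and its groups were XXY males (8 arrays), XX males (7), XX females (8) and XY males (8). The sample names mark Sry, the testis-determining gene, in the 3 male groups, and the model is known for carrying Sry apart from the Y chromosome. The labels name no treatment, call the arrays biological replicates without saying that each came from another animal, and place 20 arrays in batch 1 and 11 in batch 2, so the p-values measure only the spread between these samples.

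Vasopressin and oxytocin are short peptide hormones cut from larger precursors. The bulk of both is made by the large magnocellular neurons of the paraventricular and supraoptic nuclei, which send axons to the posterior pituitary, while smaller vasopressin cell groups lie in the suprachiasmatic nucleus and, with a known male bias, in the BNST. These nuclei border the dissected area, and the ventral surface of the hypothalamus is covered by the meninges, the connective tissue sheets around the brain. In such bulk tissue, fewer cells of a type and less RNA per cell cannot be told apart.

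Avp and Oxt are neighbours on mouse chromosome 2, transcribed toward each other. In assembly GRCm38.p6, Oxt spans chr2:130574519-130577054 on the plus strand and Avp spans chr2:130580620-130582588 on the minus strand, with 3565 bases between them. The 250 bases before the transcript start that the RefSeq promoter table uses are shown for both, because the transcripts of this gene pair are followed together below. For Oxt that start lies inside the annotated span, which extends further upstream. The sequences are from RefSeq, and capitals mark the letters CACGTG (an E-box), AGGTCA (a nuclear receptor element) and ATAAA, each searched on both strands, with no overlap between the matches shown.
Avp, chr2:130582589-130582838, minus strand: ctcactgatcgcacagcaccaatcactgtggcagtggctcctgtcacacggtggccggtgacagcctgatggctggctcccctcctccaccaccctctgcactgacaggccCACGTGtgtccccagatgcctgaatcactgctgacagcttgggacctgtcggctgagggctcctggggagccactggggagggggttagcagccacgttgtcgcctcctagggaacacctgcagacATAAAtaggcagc
Oxt, chr2:130575919-130576168, plus strand: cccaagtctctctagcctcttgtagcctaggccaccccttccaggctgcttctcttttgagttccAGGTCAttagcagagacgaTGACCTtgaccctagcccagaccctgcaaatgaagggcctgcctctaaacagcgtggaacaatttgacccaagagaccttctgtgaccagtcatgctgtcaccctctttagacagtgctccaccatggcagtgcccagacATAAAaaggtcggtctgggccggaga
The Avp window held 1 CACGTG and the Oxt window 0, while the Oxt window held 2 AGGTCA and the Avp window 0. ATAAA occurred once in each, a short way before that start. Among 32851 promoter windows of the same length, 6.02% held CACGTG, 14.0% held AGGTCA and 37.3% held ATAAA, so these are common letters and not evidence of a bound factor.

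The processed Avp value lay between 13.15 and 13.63 with a median of 13.24 on the Avp-rich arrays, and between 10.72 and 12.24 with a median of 11.68 on the Avp-poor arrays. The means were 13.30 and 11.51, a difference of 1.79 on the log2 scale or 3.46-fold. The rank left no natural gap, since the first array outside the rich side had 13.05 against 13.15 just inside, and the first outside the poor side had 12.32 against 12.24 just inside. The Avp-poor arrays were more spread than the rich ones, with XY male 5 at 10.72, XX female 6 at 10.94 and XXY male 3 at 11.09.

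The Avp-rich side held 3 XXY males, 3 XX males, 2 XY males and 0 XX females, and the Avp-poor side held 1 XXY male, 1 XX male, 2 XY males and 4 XX females. The share of females, 0 of 8 against 4 of 8, did not pass a two-sided Fisher's exact test (p = 0.0769). With 10 arrays a side the same count was 0 of 10 rich and 5 of 10 poor (Fisher's exact p = 0.0325). Batch 2 gave 2 of the 8 rich and 4 of the 8 poor arrays (Fisher's exact p = 0.608). With 6 a side it was 0 of 6 rich and 3 of 6 poor (Fisher's exact p = 0.182). Whether calls passed with genotype group as a term is given below. With that term the 4 XX females of the poor side add nothing directly to the difference, since 0 stood on the rich side. The difference then rests on the 8 rich and 4 poor arrays of males. For the 4 female arrays, ovaries and a low Avp value cannot be told apart.

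Counts of detected probes overlapped between the sides, with 13041 to 14397 probes detected on the rich arrays and 13013 to 14167 on the poor arrays of 25697 on the array. Median bead intensity was 149 to 245 on the rich arrays and 160 to 259 on the poor ones. On the first principal component of the authors' processed values the sides stood apart more, with -25.4, -15.6 and 9.63 (lowest, median, highest) on rich arrays and -4.13, 8.84 and 19.2 on poor arrays. 7 of the 8 rich arrays lay below every poor array, and XY male 6 lay at 9.63. The part of this component in the differences below was not tested. A single array went against its described batch. On the first principal component of the normalized values, XX male 6, described as batch 1 and placed on the rich side, stood at 33.4, within the batch 2 arrays (22.8 to 36.8) and away from the other 19 batch 1 arrays (-25.9 to -12.7). Counting it in batch 2 gave 196 genes past the threshold (1.67%) in place of the 133 described below. XY male 6 on the rich side and XY male 2 on the poor side stood apart from the other arrays of their side in many of the genes that rose, and values without them are given after those genes.

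**Figure D1:**
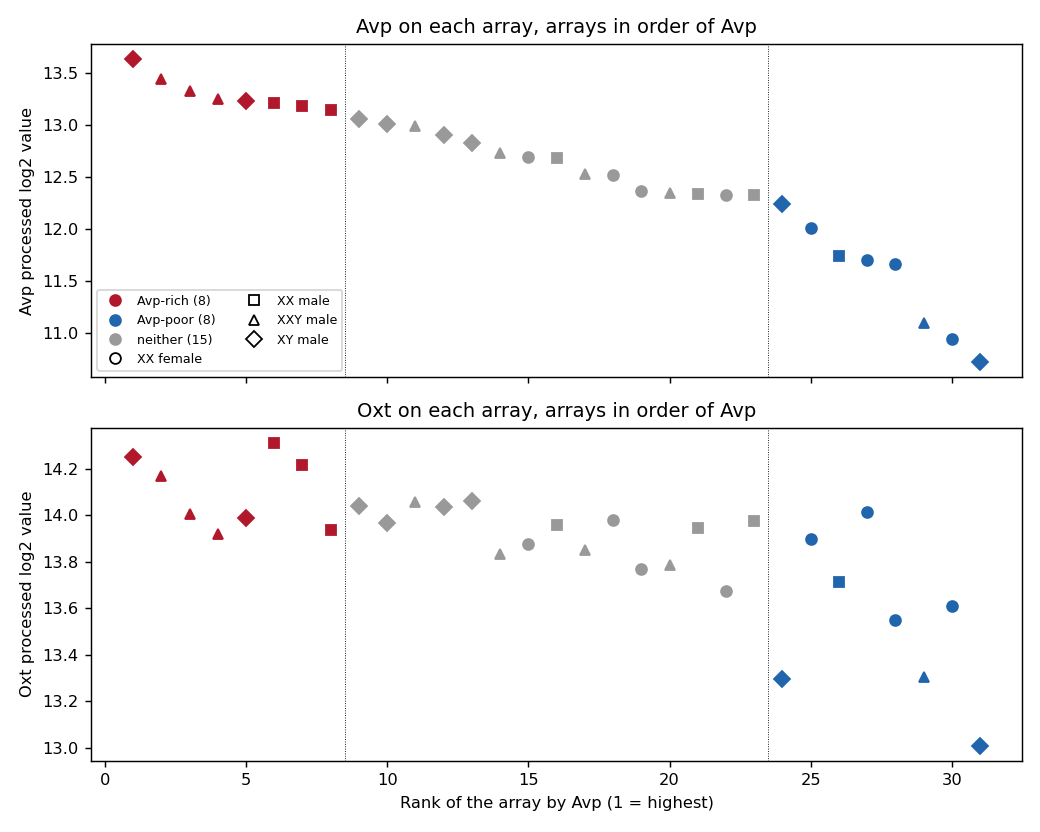
Processed log2 values of Avp (top) and Oxt (bottom) on each of the 31 arrays, in order of Avp, coloured by side and shaped by genotype group. The dotted lines bound the 8 rich and 8 poor arrays. Oxt lay between 13.92 and 14.31 on the rich arrays and between 13.01 and 14.01 on the poor arrays.

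Oxytocin was the other peptide of this system, and its transcript was not used in the ranking. The normalized log2 signal of Oxt had a lowest value of 13.91, a median of 14.08 and a highest of 14.39 on Avp-rich arrays, against 12.77, 13.66 and 14.03 on Avp-poor arrays. Of the poor arrays only XX female 8 and XX female 2 reached the range of the rich arrays. The means were 14.10 ± 0.16 on rich and 13.52 ± 0.44 on poor arrays (SD, n = 8 each), and the fitted difference of 0.64 (SE 0.152, 1.56-fold) just missed the threshold over all genes (limma, adjusted p = 0.054). Within batches the difference was 0.87 in batch 1 and 0.25 in batch 2. Oxt passed with genotype group as a term (0.82, adjusted p = 0.0419) and after XX male 6 was moved to batch 2 (0.61, adjusted p = 0.031). Oxt also passed in the authors' processed values, fitted without a batch term (0.55, adjusted p = 0.0274).

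The relation of Avp and Oxt across arrays is given as a description, with no test, since Avp chose the arrays. Across all 31 arrays their processed values had Pearson's r = 0.805 and Spearman's rho = 0.747. Without XY male 5 and XX female 6, the arrays farthest from the median of Avp, r was 0.743. Within batch 1 (n = 20) r was 0.831, and 0.618 without its 2 farthest arrays, and within batch 2 (n = 11) it was 0.852 and 0.705. On the 15 arrays on neither side r was 0.670, and 0.733 without their 2 farthest arrays. Among the 23 males r was 0.878 and 0.704 without the farthest pair. Among the 8 XX females r was 0.458 and rho 0.429, and r was 0.161 without the farthest pair. The females ranged from 10.94 to 12.69 in Avp, and none ranked above 15.

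Over all other genes, 11711 tests were made (8972 named genes and 2739 unnamed probes). At an adjusted p under 0.05, 133 passed (1.14% of those tested), of which 128 were higher on Avp-rich arrays (1.09%) and 5 were lower (0.0427%). The median difference over all tests was -0.0027, with 49.1% of them above 0. All 133 had the same sign in both batches, but they were called on these same arrays, so this is not independent evidence. Named genes made up 91 of the rises and 3 of the falls. With genotype group as a term 34 passed (0.29%, 32 higher and 2 lower), 28 of them among the 133. On male arrays alone 6 passed (0.0512%, 4 higher and 2 lower), where the poor side had only 4 arrays left. Both fits take the difference from the males, so they are not separate evidence. The part of the smaller poor side in the lower counts was not tested. All 133 kept their sign in both fits, which reuse arrays of the main fit. Over the 15 arrays on neither side, with Avp as a continuous term, 59 of the 133 did. In the authors' processed values, fitted without a batch term, 172 of 9702 passed (1.77%). With Avp as a continuous term over all 31 arrays 306 passed (2.61%). Values given for that fit are slopes scaled to the difference between the side means of Avp.

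**Figure D2:**
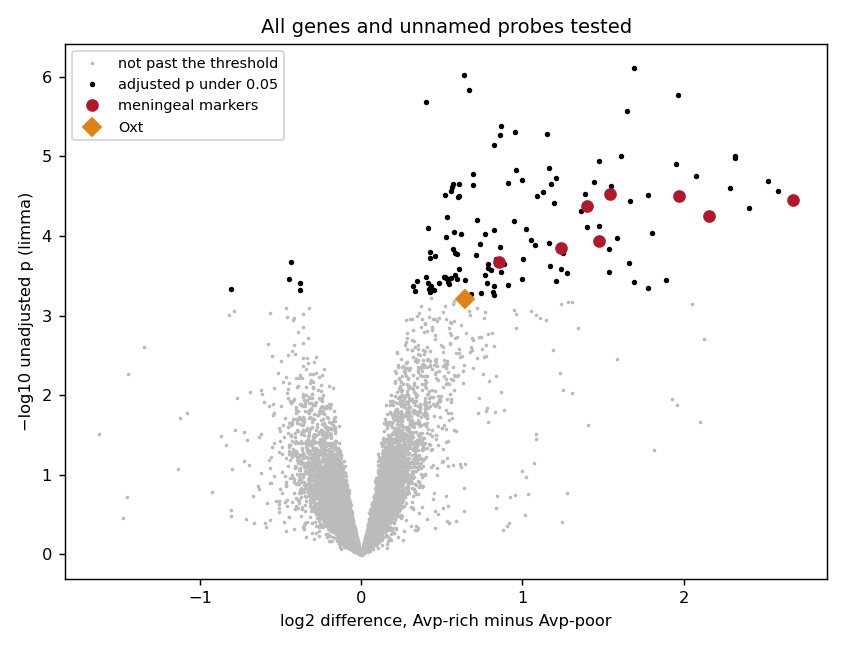
Difference in log2 signal, Avp-rich minus Avp-poor (x axis), against -log10 of the unadjusted limma p (y axis) for all 11711 tests. Black points passed an adjusted p of 0.05, red points are the 8 meningeal markers and the orange diamond is Oxt. The 128 rises outnumber the 5 falls, and Oxt at 0.64 sits just under the threshold.

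Markers of the meninges were higher on Avp-rich arrays. All 8 measured members of the 12 on the meningeal list rose, with a median difference of 1.51 against -0.0027 over all genes. Col1a1, Col1a2, Col3a1 and Slc22a6 of this list were not measured. The list and the examples were chosen with earlier results of these data known, so the count describes the list and is not independent evidence.

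Ogn encodes osteoglycin, a small proteoglycan of connective tissue. Its log2 signal had a lowest value of 6.29, a median of 9.82 and a highest of 10.43 on rich arrays, against 5.93, 6.29 and 8.44 on poor arrays. Only XY male 6 among the rich arrays was low, and only XY male 2 among the poor arrays was high. The fitted rise was 2.68 (SE 0.476), or 6.4-fold with a 95% interval of 3.18 to 12.9 (adjusted p = 0.00939).

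Slc6a13, a transporter of GABA and taurine that is abundant in the leptomeninges, had values of 7.65, 10.62 and 11.21 (lowest, median, highest) on rich arrays and 6.96, 7.95 and 8.83 on poor arrays. It rose by 2.16 (4.47-fold, adjusted p = 0.0132). Mgp, an inhibitor of calcification in vessels and cartilage, had 8.88, 11.39 and 11.87 on rich arrays and 8.45, 8.88 and 9.92 on poor arrays and rose by 1.97 (3.92-fold, adjusted p = 0.00882). For each of these genes the median rich array stood above the highest poor array.

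Igf2, a growth factor gene that in the adult brain is expressed chiefly in meninges and choroid plexus, had 11.59, 13.57 and 13.96 on rich arrays and 11.43, 11.61 and 12.40 on poor arrays (2.92-fold, adjusted p = 0.00882). Ptgds, which makes prostaglandin D2, had 11.96, 12.93 and 13.95 on rich arrays and 10.61, 11.63 and 12.37 on poor arrays (2.78-fold, adjusted p = 0.0204). These are among the brightest transcripts of the list on both sides, though levels of different probes are not compared. Aldh1a2, an enzyme of retinoic acid synthesis, rose 2.64-fold, Lum, encoding lumican, 2.37-fold, and Dcn, encoding decorin, 1.81-fold (adjusted p = 0.0103, 0.0228 and 0.0291).

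**Figure D3:**
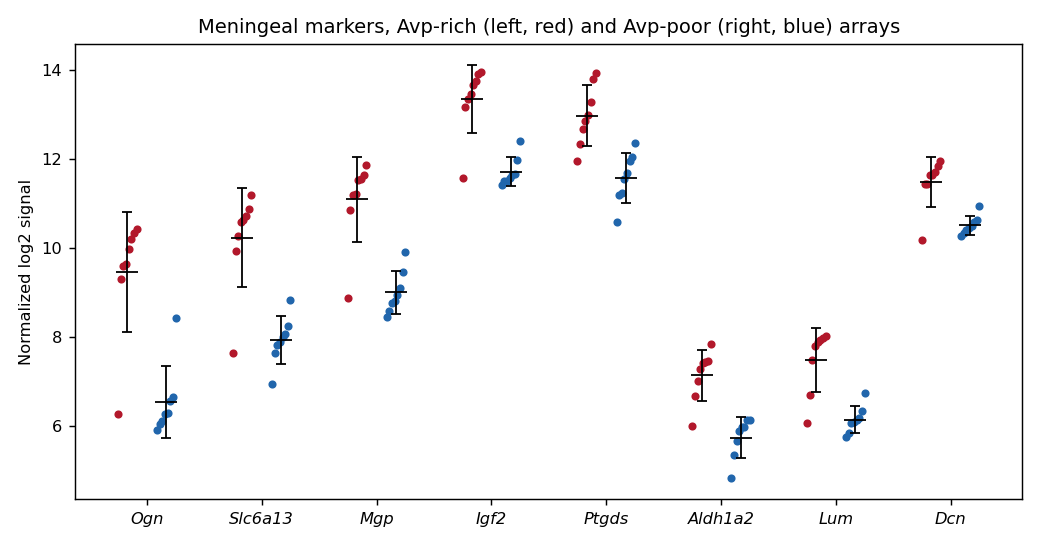
Normalized log2 signal (y axis) of the 8 measured meningeal markers on the 8 Avp-rich arrays (red, left of each pair) and the 8 Avp-poor arrays (blue, right). Points are arrays, horizontal bars means and whiskers SD. The low red point of Ogn at 6.29 is XY male 6, and the high blue point at 8.44 is XY male 2.

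The mean log2 signal of the 8 markers on a single array had a lowest value of 8.58, a median of 10.63 and a highest of 11.08 on rich arrays, against 8.10, 8.65 and 9.28 on poor arrays. The cut between a high and a low range was set at the highest poor array, at 9.28, so no poor array could be in the high range. No array lay between 9.28 and 9.69, and none between 8.82 and 9.28. 7 of 8 rich arrays were at 10.27 or above, while XY male 6 was at 8.58. On the poor side XY male 2 was at 9.28 and the other 7 at 8.71 or below. Of the 15 arrays on neither side, 7 were above 9.28 and 8 were at or below 8.82.

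Of the 7 arrays on neither side with the higher Avp values 5 were in the high range, against 2 of the 8 with the lower Avp values. By batch it was 4 of 5 arrays in batch 2 and 3 of 10 in batch 1, and the part of batch in this count was not tested. Within these 15 arrays the median slope of the 8 markers against Avp, scaled to the difference between the sides, was -0.99, and it was -2.03 within batch 1 (10 arrays) and 4.98 within batch 2 (5 arrays), so the slope had opposite signs in the batches. 0 of the 11711 tests (0%) passed over these 15 arrays in a limma fit (847 had an unadjusted p under 0.05). With genotype group as a term the median of the list was 1.38 and on male arrays alone 1.54, against 1.51, and 0 of 8 markers passed in either fit. With 6 arrays a side 0 passed, and with 10 a side 1 passed.

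**Figure D4:**
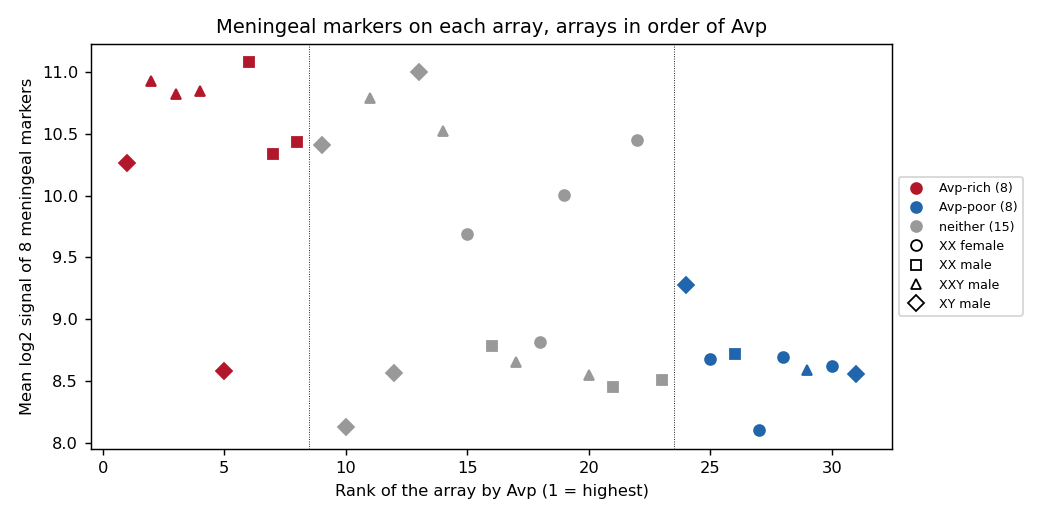
Mean normalized log2 signal of the 8 meningeal markers (y axis) on each of the 31 arrays in order of Avp (x axis), coloured by side and shaped by genotype group. 7 of the 8 red points are at 10.27 or above, the blue points are at 9.28 or below, and the 15 grey points are split between the high and the low range.

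Other large rises were of genes that were on no list. Slc13a4, a sulfate transporter, had 8.46, 11.16 and 11.88 on rich arrays and 7.73, 8.37 and 9.66 on poor arrays and rose 4.99-fold (adjusted p = 0.00862). Slc6a12, a transporter of betaine and GABA, rose 5.31-fold (adjusted p = 0.0108). Serpina1b, an antitrypsin gene with near-identical copies that the probe may not separate, had 5.43, 8.64 and 9.77 on rich arrays and 5.26, 5.67 and 6.06 on poor arrays and rose 5.76-fold (adjusted p = 0.00882). None of these 3 passed with genotype group as a term.

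Further genes among the largest rises had varied roles. Fmod, encoding fibromodulin, rose 3.49-fold, Col6a1, a collagen VI chain, 3.44-fold, and Pcolce, an enhancer of procollagen processing, 3-fold. Sphk1, a sphingosine kinase, rose 3.7-fold and Nupr1, a stress-induced nuclear protein, 3.43-fold. Asgr1, a receptor subunit best known from liver, rose 3.24-fold, Ranbp3l 3.18-fold and Mrgprf, an orphan receptor, 3.13-fold. Adjusted p-values of these 8 genes ran from 0.00523 for Mrgprf to 0.0433 for Col6a1. With genotype group as a term only Nupr1 of these 8 passed. Col6a1, Sphk1 and Asgr1 passed in 11, 12 and 13 of 31 alternatives.

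XY male 6 and XY male 2 stood apart in these genes. XY male 6 was the lowest rich array for 88 of the 128 rises, and XY male 2 was the highest poor array for 43. Without XY male 6 the count of calls was 223 (215 higher, 8 lower), all 8 meningeal markers passed and their median was 1.85. Without XY male 2 it was 108, with all 8 markers passing and a median of 1.61. Without XXY male 8, a rich array, it was 52, and 3 of 8 markers passed. Without the poor arrays XY male 5, XX female 2 and XXY male 3 in turn it was 55, 66 and 65, and without the rich array XXY male 4 it was 85.

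A smaller set of genes separated the sides on every array. 28 of the 11711 tests (0.239%) had no overlap, 26 of them with the rich side higher (0.222%), and 24 of the 28 passed the test. Serpind1, encoding heparin cofactor II, a blood protease inhibitor, had 6.34, 7.61 and 7.93 on rich arrays and 5.11, 5.69 and 6.10 on poor arrays. Its rise of 1.69 (SE 0.219, 3.23-fold with a 95% interval of 2.34 to 4.46) had the smallest p of all genes (adjusted p = 0.00485). It passed with genotype group as a term (1.47, adjusted p = 0.0164) and missed the threshold on male arrays alone (adjusted p = 0.0501).

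Vtn, encoding vitronectin, which in brain is a product of pericytes, also separated the sides. It had 10.94, 11.46 and 12.27 on rich arrays against 10.29, 10.61 and 10.85 on poor arrays and rose 1.88-fold (adjusted p = 0.00882). It did not pass with genotype group as a term. Of the 10 measured endothelial and pericyte markers it was the only call, and the median of that list was -0.016.

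Falls called in this fit were few and small. Nat8f1, of an N-acetyltransferase family, had 7.81, 8.73 and 9.34 on rich arrays and 8.92, 9.73 and 10.02 on poor arrays, a difference of -0.81 (1.75-fold lower, adjusted p = 0.0433). Ethe1, a mitochondrial enzyme that detoxifies sulfide, differed by -0.44 (1.35-fold lower, adjusted p = 0.0291) and Fv1, a retrovirus restriction gene, by -0.38 (1.3-fold lower, adjusted p = 0.0397). None of these 3 passed with genotype group as a term. Nat8f1, Ethe1 and Fv1 passed in 13 of 31, 19 of 31 and 8 of 32 alternatives. Zfp128 at -0.33 (adjusted p = 0.0636) and Tmem144 at -0.79 (adjusted p = 0.0668) came next and did not pass. Mcph1, chosen after its values were seen, was not called in this fit. It fell with genotype group as a term (-2.07, limma adjusted p = 0.0271) and on male arrays alone (-2.03, limma adjusted p = 0.0446).

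Genes of the magnocellular system held no calls, Oxt included. Of the 15 measured of 22 neurosecretory peptides and helper genes 0 passed, 10 were above 0 and the median was 0.12. Sign counts of this and later lists stand beside the 49.1% of all tests that were above 0, and they were not tested. Pdyn, the dynorphin precursor made by vasopressin neurons, averaged 12.07 ± 0.28 on rich arrays and 11.54 ± 0.69 on poor arrays (SD, n = 8 each), a difference of 0.51 (adjusted p = 0.524). Pdyn passed in 2 of 32 alternatives, without XY male 2 (0.80, adjusted p = 0.0233) and with Avp as a continuous term (0.65, adjusted p = 0.0333). Cck, the cholecystokinin precursor made by oxytocin neurons, differed by -0.51 (adjusted p = 0.765), and by 0.07 with genotype group as a term. Of the developmental regulators of paraventricular and supraoptic neurons, 12 of 15 were measured, 0 passed and the median was 0.03. Of the receptors and processing enzymes only 2 of 9 were measured. Avpr1a, the vasopressin receptor of brain, differed by -0.18 (adjusted p = 0.752) and Pam, which amidates both peptides, by -0.20 (adjusted p = 0.867).

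The suprachiasmatic nucleus is another source of vasopressin. Of its 17 markers 14 were measured, 0 passed and the median was -0.024. Vip, a peptide of the same nucleus, had 8.91, 9.85 and 10.27 on rich arrays and 7.36, 9.57 and 9.91 on poor arrays, a difference of 0.61 (adjusted p = 0.535). Prok2, a secreted clock output, differed by -0.37 (adjusted p = 0.537) and Six3, a forebrain transcription factor, by 0.33 (adjusted p = 0.25). Of the 14 measured clock genes 0 passed and 10 were below 0, with a median of -0.047, where 49.1% of all tests were above 0.

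Markers of the labelled tissue were present on both sides. 16 of 23 genes of the preoptic area and BNST were measured, each was detected on at least 1 array of either side, and 0 passed (median 0.015). Their mean level was 8.42 to 8.76 on rich arrays and 8.42 to 8.81 on poor arrays. Of 6 measured arcuate and mediobasal markers 5 were above 0 (median 0.44). Pomc, the melanocortin precursor, had 5.80, 7.78 and 8.93 on rich arrays, where it was detected on 8 of 8, against 4.72, 4.77 and 8.18 on poor arrays, where it was detected on 2 of 8. On the poor side XY male 2 and XX female 8 were the high arrays, and the difference of 2.13 did not pass (adjusted p = 0.108). Pomc passed in 3 of 31 alternatives. These were without XY male 2 (2.67, adjusted p = 0.0159), with 6 arrays a side (3.14, adjusted p = 0.000255) and with Avp as a continuous term (2.36, adjusted p = 0.00978). Npy, neuropeptide Y, differed by 0.83 (adjusted p = 0.312). It passed in 2 of 31 alternatives, without XY male 2 (1.13, adjusted p = 0.0447) and with Avp as a continuous term (0.95, adjusted p = 0.0364). Tbx3, a transcription factor of the arcuate nucleus, differed by 0.48 (adjusted p = 0.456).

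For the lateral hypothalamus 8 of 10 markers were measured, 0 passed and the median was 0.18. Hcrt, the orexin precursor, averaged 8.64 ± 1.80 on rich and 7.17 ± 1.99 on poor arrays (SD, n = 8 each), a difference of 1.81 (adjusted p = 0.478). Pmch, the melanin-concentrating hormone precursor, differed by 1.28 (adjusted p = 0.664). Hcrt ran from 6.37 to 11.27 on rich arrays and from 5.08 to 11.02 on poor arrays, so the spread within a side was wide.

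All 13 measured thalamic markers of 16 were below 0, with a median of -0.42, and 0 passed, where 49.1% of all tests were above 0. Tnnt1, a troponin gene that marks thalamic relay neurons, had 6.63, 9.13 and 11.31 on rich arrays and 7.62, 9.58 and 12.11 on poor arrays, a difference of -0.81 (adjusted p = 0.789). Ramp3, a receptor accessory protein, differed by -0.81 (adjusted p = 0.754) and Gbx2, a thalamic transcription factor, by -0.72 (adjusted p = 0.527). The median of the list was 0.06 with genotype group as a term and -0.087 on male arrays alone, a change of direction in the first.

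Of the 7 measured septal markers 6 were below 0 (median -0.20), with Zic2, Zic1 and Zic4, transcription factors of one family, at -0.45, -0.42 and -0.32 (adjusted p = 0.498, 0.336 and 0.547). Of the 9 measured striatal markers 7 were below 0 (median -0.17), with Gpr6 at -0.41, Tac1, the substance P precursor, at 0.30 and Pde10a, a striatal phosphodiesterase, at -0.26 (adjusted p = 0.55, 0.664 and 0.681). The mean level of the striatal list was 10.56 on the poor array XY male 2, against a median of 8.89 over the poor arrays. Leaving out each array gave striatal list medians of -0.27 to 0.014, so the sign was not kept throughout. Tac1 passed in 2 of 31 alternatives, without XY male 2 (0.56, adjusted p = 0.0156) and with Avp as a continuous term (0.48, adjusted p = 0.0313). The 10 measured cortical and hippocampal markers had a median of -0.099. It was 0.077 with genotype group as a term and 0.032 on male arrays alone, a change of direction in both. None of these 3 lists held a call, and 49.1% of all tests were above 0.

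The astrocyte and oligodendrocyte lists held 1 call each among 12 measured markers, where 1.14% of all tests were called. Gfap, the intermediate filament of reactive and surface astrocytes, had 9.13, 10.07 and 10.48 on rich arrays and 8.34, 8.88 and 10.01 on poor arrays and rose 1.67-fold (adjusted p = 0.0467), the only call among 12 astrocyte markers, whose median was -0.0008. It passed in only 10 of 31 alternatives and not with genotype group as a term. Apod, apolipoprotein D, had 12.59, 13.14 and 13.42 on rich arrays and 12.23, 12.48 and 12.76 on poor arrays and rose 1.48-fold (adjusted p = 0.0232), a call also lost with genotype group as a term.

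All 12 measured oligodendrocyte markers of 14 were above 0, with a median of 0.20, where 49.1% of all tests were above 0. Opalin, a myelin membrane protein, differed by 0.55 (adjusted p = 0.117) and Mobp, a myelin basic protein family member, by 0.34 (adjusted p = 0.477), and neither passed. Opalin passed in the authors' processed values, fitted without a batch term (0.59, adjusted p = 0.0313). The list median stayed between 0.17 and 0.25 over the alternatives tried for this list, which did not include the 15 arrays on neither side. Microglia (10 measured, median 0.022), choroid plexus and ventricle wall (6 measured, median -0.063) and blood (3 measured, median -0.088) held 0 calls.

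Markers of activity and secretory load showed no calls either. Of 7 measured immediate early genes 5 were below 0 (median -0.13), with the transcription factors Egr4 at -0.21 and Fosb at -0.17 and the phosphatase Dusp1 at -0.21 (adjusted p = 0.841, 0.836 and 0.667). Among all tests 49.1% were above 0. The median of the immediate early genes was 0.20 with genotype group as a term. Glucocorticoid-responsive genes (15 measured, median 0.011), genes of the endoplasmic reticulum load response (14 measured, median -0.029) and the respiratory chain (13 measured, median -0.029) also held 0 calls.

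**Figure D5:**
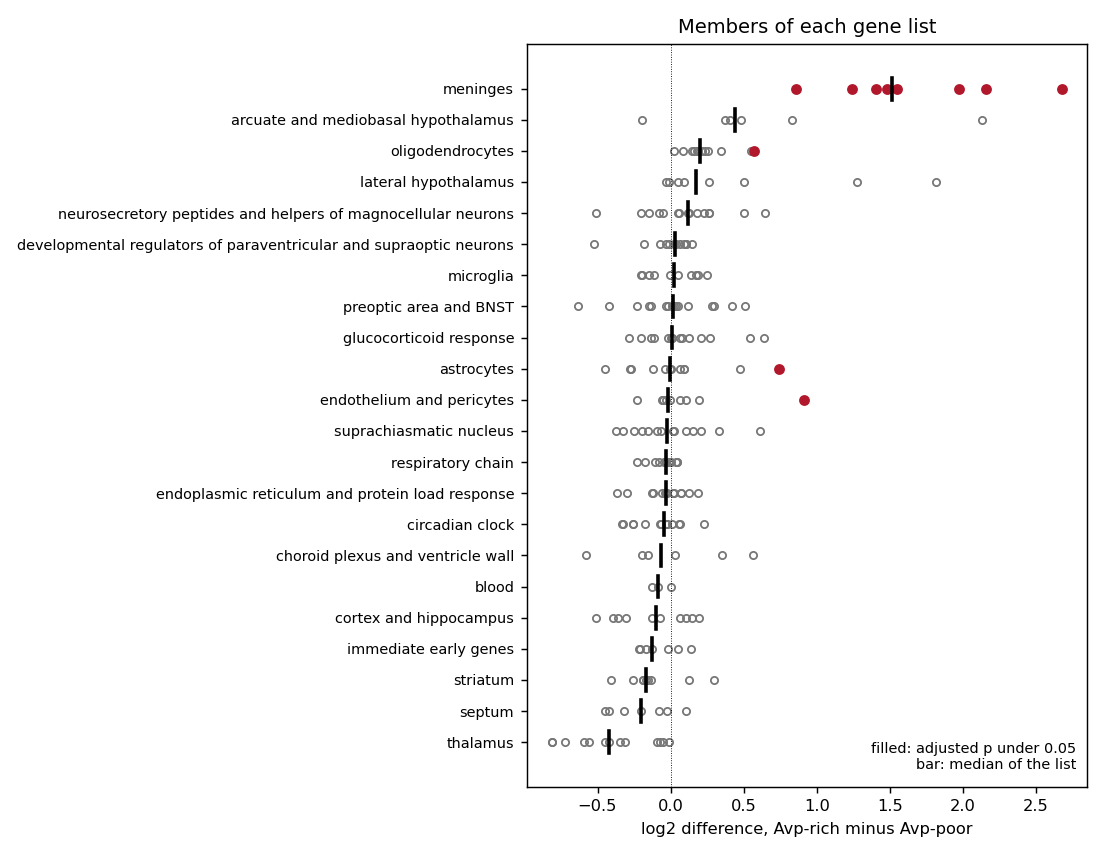
Log2 difference, Avp-rich minus Avp-poor (x axis), of each measured member of 22 gene lists (rows). Filled points passed an adjusted p of 0.05 and bars are list medians. The meningeal list, with a median of 1.51 and 8 of 8 calls, stands to the right, and the thalamic list, with a median of -0.42 and 0 calls, to the left.

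Sex-linked and sex-differing genes were read as a check of the labels. Xist, which silences an X chromosome, was detected on 6 of 8 rich and 6 of 8 poor arrays and differed by 0.59 (adjusted p = 0.822), and by -0.38 with 10 arrays a side. On either side the lowest values were those of the 2 XY males. Eif2s3x, an X-linked gene that escapes inactivation, differed by -0.094 (adjusted p = 0.892). Kiss1, the kisspeptin gene, which is higher in female preoptic tissue, differed by -0.63 (adjusted p = 0.423), and Trim59 by 0.79 (adjusted p = 0.352). On the poor side Trim59 was 4.61 to 5.65 on XX females and 5.90 to 7.13 on males. Kiss1 was 7.97 to 8.44 on XX females and 6.45 to 7.80 on males of that side. The list of 9 such genes held 0 calls and had a median of 0.0016.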

How the data were processed

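Per the labels, biotin-labelled RNA of 31 samples was hybridised to single-colour Illumina bead arrays. The deposited scanner table gives a mean bead intensity for 25697 probes, unnormalized per the file headers, and a detection p-value per probe and array, also deposited. For 12980 probes the authors also deposited processed values, whose log2 scale no header states and was found by comparison with the values normalized here (correlation 0.997). The median was 8.65 in each column, the genes were not centred and 31 cells were empty. The submitters' processing notes list limma. Other steps behind the processed values: not given in the sources used here.

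Source labels gave the groups, and the descriptions gave the batches. The ranking used the processed Avp value (probe ILMN_2710928, the only named Avp probe). Limma 3.58.1 (R 4.3.3) was used for neqc normalization, with an offset of 16 and background inferred from the detection p-values. The filter kept 14989 probes that 7 or more arrays detected (p-value below 0.05), and a gene was represented by its probe of highest mean. Names came from platform annotation of the processed probes and a RefSeq gene table of GRCm38.p6, which updated 5 symbols, and 12250 probes had 1 symbol and 0 had several. Probes that this annotation does not name are called unnamed, and a gene without a named, kept probe counts as not measured.

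The 16 arrays entered a limma fit with side and batch as terms, two-sided, with Benjamini-Hochberg adjustment over all 11711 tests at 0.05. Adjusted p-values are from this fit unless stated otherwise, differences are rich minus poor on the log2 scale, intervals are 95% intervals, and means ± SD are before any batch term. With Avp as a continuous term, a value is instead a slope scaled to the difference between the side means of processed Avp. The number of arrays limits the precision. Array make-up was tested with Fisher's exact test. The authors' processed values were fitted without a batch term. Within-batch values, other normalizations, filters, side sizes, genotype group as a term and leaving out each array were tried as alternatives, and male arrays alone, the 15 arrays on neither side and a replicate block were added after seeing the data.

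Named genes were the 15 largest rises and 15 largest falls among named genes past the threshold, where fewer than 5 passed also the 5 of smallest p, Oxt, every list member past the threshold, the 3 largest differences of a list as its examples (for 10 lists only), and Xist, Eif2s3x, Kiss1 and Trim59 as checks. Other genes are said to be chosen after their values were seen. The members and the 25 gene lists were chosen with earlier results of these data known, 23 lists had at least 3 measured members, and none of 9 pituitary markers was measured.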

Additional observations from a re-analysis of the deposited data

Results flagged for a closer look

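In 158 pairs of a named gene and a side, the highest or the lowest array was examined for a gap to the nearest of the other arrays that is large against the range of the side. 25 pairs passed Dixon's limit, where chance flags about 1 in 20. The arrays within a pair are the same throughout, so these are not separate events. All values are normalized log2 signals.

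On the Avp-rich side, XY male 6 was low for 17 genes. It had 6.29 for Ogn (next lowest 9.31), 5.43 for Serpina1b, 5.60 for Slc6a12, 8.46 for Slc13a4, 7.65 for Slc6a13 and 8.88 for Mgp. It had 5.88 for Col6a1, 7.49 for Nupr1, 6.96 for Ranbp3l, 11.59 for Igf2 and 10.18 for Dcn (next lowest 11.44). It also had 9.48 for Lyz1, 7.79 for Lyz2, 7.90 for Serping1, 6.19 for Nid1, 6.35 for Bmp4 and 6.11 for Emp3.

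On the Avp-poor side, XY male 2 was high for 7 genes. It had 8.44 for Ogn (next highest 6.67), 9.65 for Slc13a4, 6.97 for Asgr1 and 8.49 for Serping1. It also had 13.08 for Pdyn (next highest 11.86), 12.38 for Tac1 and 8.83 for Pde10a. XY male 5 was low for Vip, at 7.36 against 8.93 on the next array. The part of these arrays in the results above is shown by the counts without them.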

How the results depend on the processing

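The replicate numbers count arrays within a genotype group and do not pair the sides, of which both hold numbers 2, 5, 6 and 8. With replicate number as a replicate block in place of batch, chosen after seeing the data, 0 genes passed in limma (0 higher, 0 lower, 0 meningeal; 1031 at an unadjusted p under 0.05), where 10 of the 16 arrays share a number across the sides and so inform the difference. The 8 meningeal markers kept a median of 1.64, Oxt was 0.56, and Avpr1a reversed to 0.023, Egr4 to 0.039 and Eif2s3x to 0.022. Calls over all genes, 133 (128 higher, 5 lower), were 34 (32 and 2) with genotype group as a term, 6 (4 and 2) on male arrays, 87 (85 and 2) without the filter on dim probes, 11 (11 and 0) with 6 arrays a side, 74 (68 and 6) with 10 a side, 306 (258 and 48) with Avp as a continuous term over 31 arrays, and 0 (0 and 0; 847 at an unadjusted p under 0.05) with Avp as a continuous term over the 15 arrays on neither side. Falls were 15 with XX male 6 in batch 2, 15 in the processed values and 3 with cyclic loess. They were 9 when arrays were ranked by the normalized Avp value centred within each batch. Leaving out each array gave 52 to 223 calls, 52 to 215 rises, 0 to 8 falls and 3 to 8 meningeal calls.

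The meningeal calls were 0 with genotype group as a term, with 6 a side, on male arrays and over the 15 arrays on neither side, and 1 with 10 a side. The median of the 8 markers reversed to -0.99 over those 15 arrays. Within batches it was -2.03 in batch 1, also reversed, and 4.98 in batch 2, not reversed. Oxt passed in 8 of 32 alternatives. It passed at 0.82 with genotype group as a term, 0.61 after the batch of XX male 6 was changed, 0.55 in the processed values, 0.64 without background correction, 0.63 with Avp as a continuous term, and 0.71, 0.68 and 0.75 without XY male 6, XX female 8 and XX female 2. Leaving out each array gave Oxt 0.52 to 0.75. Fisher's exact p for females was 0.0325 with 10 a side. Cck reversed to 0.068 with genotype group as a term, Xist to -0.38 with 10 a side and Eif2s3x to 0.0075 without XY male 6 (from -0.19 to 0.0075 over the arrays left out). The cause was not tested. Under the other settings all of the 133 calls that could be tested kept their sign, except over the 15 arrays on neither side, where 59 did. Signals of dim probes limit what could be measured.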

Other observations

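Several other genes passed the test and were chosen after their values were seen. Cd74, the invariant chain of MHC class II, had 7.74, 8.96 and 9.36 (lowest, median, highest log2 signal) on rich arrays and 6.97, 7.48 and 7.98 on poor arrays, a 2.24-fold rise (adjusted p = 0.0209). H2-Ab1 and H2-Eb1, class II chains, rose 2.36-fold and 2.32-fold (adjusted p = 0.0334 and 0.0396), and passed in 14 of 32 and 13 of 31 alternatives. Lyz1 and Lyz2, lysozymes of macrophages with near-identical copies, rose 2.24-fold and 2.03-fold (adjusted p = 0.00882 and 0.0167), while the 10 measured microglial markers had a median of 0.022. With genotype group as a term none of these 5 passed.

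Acta2, smooth muscle actin, rose 1.85-fold and Myh11, smooth muscle myosin, 2-fold (adjusted p = 0.0301 and 0.0386), and neither passed with genotype group as a term. Acta2 passed in 14 of 32 alternatives. Other rises were Bgn (biglycan) at 2.19-fold, Aebp1 at 2.57-fold, Hspg2 (perlecan) at 1.77-fold, Nid1 (nidogen) at 1.65-fold, Gjb2 (connexin 26) at 2.12-fold, Bmp4 at 2.78-fold, Emp3 at 2.92-fold, Icam1 at 1.51-fold and Serping1 (C1 inhibitor) at 2.78-fold. Their adjusted p-values ran from 0.00882 to 0.0386, and with genotype group as a term all but Nid1 missed the threshold.

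3 genes chosen after their values were seen separated the sides on every array. Vim, encoding vimentin, had 8.71, 9.30 and 9.45 on rich arrays and 8.07, 8.49 and 8.66 on poor arrays, a 1.59-fold rise (adjusted p = 0.00485). Clec2d, a lectin, had 8.16, 8.44 and 8.60 on rich arrays and 5.72, 7.21 and 7.88 on poor arrays, a 2.62-fold rise, and XY male 6 stood at 8.53. Klk6, a secreted protease of oligodendrocytes, had 8.67, 9.07 and 9.27 on rich arrays and 6.97, 7.82 and 8.51 on poor arrays, a 2.26-fold rise, and XY male 6 stood at 9.05. Each passed with genotype group as a term. Vim and Klk6 missed the threshold with 6 arrays a side, and all 3 missed it on male arrays alone. Snhg11, a noncoding RNA host gene, had the smallest p with genotype group as a term (1.33, adjusted p = 0.00164) and did not pass without it (0.96, adjusted p = 0.0696). Of the 133 calls 39 were unnamed probes.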
